A study of Homo sapiens with 4 samples.

Results

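The MYC, MAX and MXD network was followed here through its 10 genes, taken by exact symbol from the 33089 gene rows of the expression table: MYC, MYCN, MAX, MXD1, MXD3, MXD4, MXI1, MNT, MLX and MGA. The cells were HT29, an established human colorectal cancer line, grown in DMEM with fetal calf serum. Of 4 total RNA libraries, 2 came from untreated cells, for which no vehicle is named, and 2 from cells given 100 µM fluorouracil (5FU) for 2 h. Fluorouracil is a pyrimidine analogue whose metabolites block thymidylate synthase and are built into RNA. Whether the replicates were separate cultures is not stated; the p-values reflect how far these 4 libraries spread, possibly for technical reasons.

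MYC and its paralogue MYCN are basic helix-loop-helix leucine zipper transcription factors that bind DNA only as a dimer with MAX, at the E-box CACGTG, and activate genes of growth, ribosome production and metabolism. The MXD proteins, MXI1, MNT and MGA compete with MYC for MAX and repress from the same site, the MXD group, MXI1 and MNT through the SIN3 and histone deacetylase corepressor and MGA as part of a Polycomb complex. MLX is a MAX-like partner that dimerizes with MXD1, MXD4 and MNT and with the glucose-sensing factors MLXIP (MondoA) and MLXIPL (ChREBP). In colorectal cancer MYC is a direct target of β-catenin and TCF factors, and MYC mRNA is short-lived.

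The E-box that these dimers bind occurs before the starts of some of the genes of the network itself. Promoter windows from RefSeq (GRCh38.p14; 250 bases before to 50 after each start) were searched for CACGTG, which reads the same on both strands. A window was matched for 9 of the 10 members, all but MYC, and 3 of these 9 held the motif, against 8.77% of 27305 genes with a window. The stretches of 60 bases around the motif, with CACGTG in capitals, are shown for these 3 and for ARRDC4, a known target of the MLX dimers described below, because CACGTG is the site that the dimers of the network share. A match describes these letters and does not show binding.
MXD4, chr4:2262300-2262359, minus strand: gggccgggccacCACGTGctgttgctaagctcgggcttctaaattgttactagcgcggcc
MNT, chr17:2401221-2401280, minus strand: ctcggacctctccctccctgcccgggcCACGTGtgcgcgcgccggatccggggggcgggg
MLX, chr17:42567023-42567082, plus strand: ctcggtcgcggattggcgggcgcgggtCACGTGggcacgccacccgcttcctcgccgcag
ARRDC4, chr15:97960466-97960525, plus strand: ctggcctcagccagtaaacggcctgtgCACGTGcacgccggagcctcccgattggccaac
The motif began 238 bases before the start in MXD4, 193 in MNT, 50 in MLX and 210 in ARRDC4. None was found in the windows of MYCN, MAX, MXD1, MXD3, MXI1 and MGA, which says only that these letters are not in those windows. The windows of TXNIP, another target of the MLX dimers described below, were searched as well and held none.

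Each level is given in FPKM, a measure meant to allow for transcript length and for the size of the library. The FPKM of all rows summed to 434628 and 427007 in untreated replicates 1 and 2. In fluorouracil replicates 1 and 2 the sums were 440558 and 764861. The deposited values were thus not on a common total, and levels in fluorouracil replicate 2 carry this limit. Fragment numbers per library are unknown, and no counting interval was computed. The libraries were not equally alike. The SD across 12462 tested genes of the log2 difference between the untreated libraries was 0.41, that of the change in fluorouracil replicate 1 against the untreated mean was 0.53, and that in fluorouracil replicate 2 was 1.80. The change of all tested genes had a median of 0.01 in the first treated library and of 0.19 in the second. Across 10513 genes with an annotated coding transcript, the change in fluorouracil replicate 2 followed GC content (Spearman's rho 0.70 across genes) and transcript length (rho -0.45). In fluorouracil replicate 1 these were 0.03 and -0.05. What set fluorouracil replicate 2 apart was not tested. Changes of the members, and of the other genes with an annotated coding transcript where a difference is given, are therefore also given with the trend over GC content and length removed from every library. The 11 epithelial markers summed to 7358 and 7756 FPKM in untreated replicates 1 and 2. In fluorouracil replicates 1 and 2 they summed to 7461 and 16551 FPKM. KRT8 and KRT18 were the most abundant of them, at 3439 and 2506 FPKM in untreated replicate 1. The colon markers CDX1 and CDX2, of the same list, stayed below 1 FPKM in all 4 libraries, and CEACAM5 lay between 1.20 and 1.92 FPKM. Of 12 markers of fibroblasts, leukocytes and endothelium, 11 stayed below 1 FPKM in all 4 libraries, and the exception was CD14, at 1.91 and 1.36 FPKM without the drug and 1.53 and 8.68 FPKM with it.

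In untreated cells MYC was the most abundant transcript of the network and MYCN was listed at 0. MYC averaged 111 ± 12 FPKM (SD, n = 2, here and below). MLX followed at 53.6 ± 0.655 FPKM and MXD3 at 46.3 ± 2.72 FPKM. MAX, the obligate partner, was far lower than MYC at 13.4 ± 1.35 FPKM. MXI1 (11.6 ± 0.0340 FPKM) and MXD1 (10.9 ± 1.23 FPKM) overlapped each other, MXD4 stood at 6.37 ± 0.660 FPKM, and MGA (3.64 ± 0.415 FPKM) and MNT (3.51 ± 0.399 FPKM) again overlapped. The untreated libraries placed the members in the same order except for the neighbours MXI1 and MXD1. MXD3 made up 57.4% and 55.1% of the summed FPKM of the 6 antagonists (MXD1, MXD3, MXD4, MXI1, MNT and MGA) in untreated replicates 1 and 2.

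**Figure D1:**
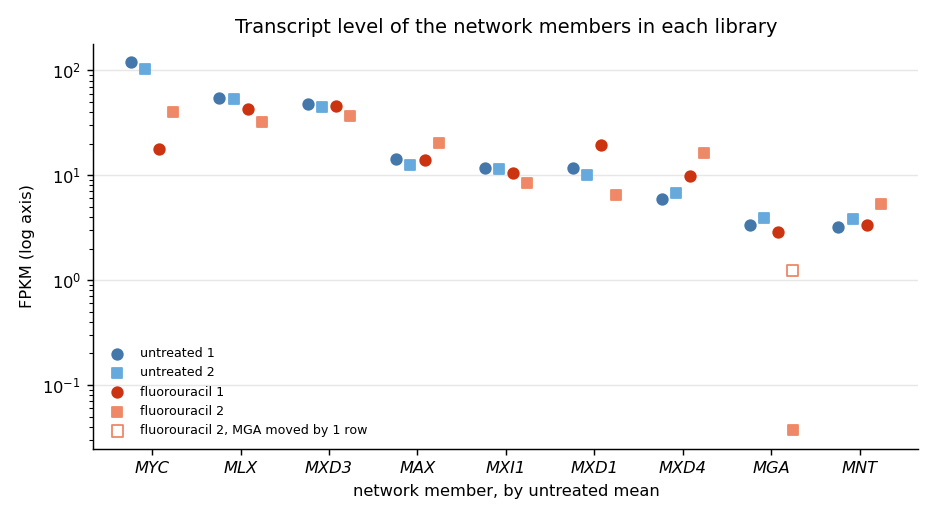
FPKM on a log axis of the 9 network members with a value above 0, in each of the 4 libraries; each point is 1 library. MYC lies between 102 and 119 FPKM without the drug and at 17.9 and 40.4 FPKM with it; the open square is the MGA value of fluorouracil replicate 2 moved by 1 row.

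The question put by the comparison was how these transcripts stood after 2 h of fluorouracil. MYC had the lowest ratio of treated to untreated mean FPKM of the members, 0.263, and MXD4 was the single member with both treated values above both untreated ones. MYC, MLX, MXI1 and MGA had both treated values below both untreated ones. MAX, MXD1, MXD3 and MNT overlapped. Of the 9 members that reached a mean of 1 FPKM, 1 was thus higher and 4 were lower by range. Over all 12462 tested genes, 24.4% were higher and 19.3% lower by the same rule, which leaves 43.7% in either direction against 5 of 9 members. With the trend removed, 1 member was higher and 5 were lower (MXD3 was added), where 18.7% and 29.2% of 10513 genes were higher and lower. By limma with Benjamini-Hochberg adjustment over all genes tested, 0 of the 9 passed an adjusted p of 0.05, as did 0% of all genes. At an unadjusted p below 0.05, MYC was the 1 member that passed, where 3.21% of all genes did. An exact two-sided permutation test of a single gene with 2 libraries against 2 cannot give a p below 0.333.

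MYC itself measured 119 and 102 FPKM without the drug and 17.9 and 40.4 FPKM with it. Both treated values were well below both untreated ones, and fluorouracil replicate 1 was the lower of the pair. In bulk RNA, fewer cells with a transcript and less of it per cell cannot be told apart. The treated mean of 29.1 ± 16 FPKM was 3.80-fold below the untreated mean. On the scale of log2(FPKM + 0.1) the difference was -2.03 (SE 0.49, limma adjusted p = 0.671), with -2.62 in fluorouracil replicate 1 and -1.45 in fluorouracil replicate 2. Without fluorouracil replicate 2 the gene passed the test (limma adjusted p = 0.0465), and without fluorouracil replicate 1 it passed as well (limma adjusted p = 0.00369), in fits where the lone treated library is assumed to vary like the untreated pair; the latter fit called 66.9% of all genes and the former 0.144%. Without untreated replicate 1 or 2, MYC did not pass (limma adjusted p = 0.999983 and 0.999909).

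The position of MYC among all genes gives the same direction without any scaling between libraries. MYC ranked 499th and 602nd of 12462 genes by FPKM in untreated replicates 1 and 2, 3885th in fluorouracil replicate 1 and 2411th in fluorouracil replicate 2. Only 20 genes, MYC included, had a change as low as that of MYC in fluorouracil replicate 1, 1164 had one in fluorouracil replicate 2, and 17 had one in both. With the trend over GC content and length removed, the treated libraries were closer together, at -2.70 and -2.30 on the log2 scale. The mean difference was then -2.50 (limma adjusted p = 0.233 over 10513 genes), the second smallest unadjusted p in that fit. MYC lies on the plus strand of chromosome 8, from 127735434 to 127741434 (GRCh38, GENCODE 29), and its longest coding transcript of 2366 bases has a GC content of 53.9%.

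The genes whose values followed those of MYC most closely were SPRY1, BMP4 and BHLHA15, by the root mean square difference over the 4 libraries of log2(FPKM + 0.1) centred on the untreated mean. SPRY1, which encodes a feedback inhibitor of receptor tyrosine kinase signalling, differed from MYC by 0.19. It had 5.90 and 5.35 FPKM without the drug and 1.01 and 2.44 FPKM with it. BMP4, a secreted ligand of the BMP family, differed by 0.22, with 178 and 149 FPKM without the drug and 32.4 and 75.5 FPKM with it. BHLHA15, a basic helix-loop-helix factor of secretory cells, differed by 0.40. In all of them fluorouracil replicate 1 was the lowest library, as it was for MYC, which follows from their choice by likeness over these libraries.

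MAX, without which MYC does not bind DNA, did not share this pattern. It measured 14.3 and 12.4 FPKM without the drug and 14 and 20.2 FPKM with it. Fluorouracil replicate 1 lay inside the untreated range and fluorouracil replicate 2 above it. The log2 difference was 0.33 (SE 0.32, limma adjusted p = 0.674), and 0.06 with the trend removed, when the treated libraries stood at 0.02 and 0.11. The ratio of MYC to MAX FPKM was 8.30 and 8.21 without the drug and 1.27 and 2.00 with it, so that MYC transcripts were still the more abundant of the pair in every library. MYCN was listed at 0 in all 4 libraries.

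**Figure D2:**
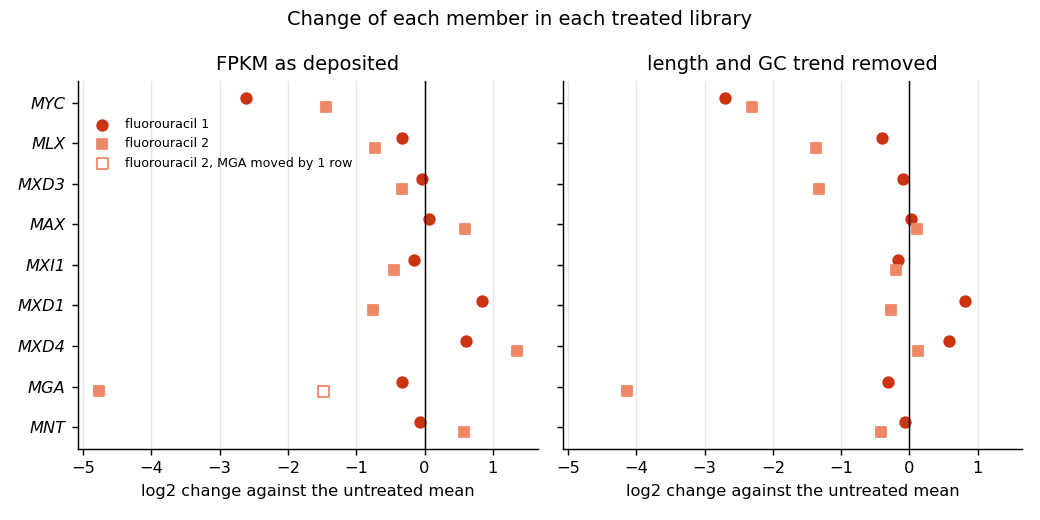
Log2 change of FPKM + 0.1 against the untreated mean for 9 members in each treated library, as deposited (left) and after removal of the trend over GC content and length (right, where MGA is shown as deposited). MYC is at -2.62 and -1.45 on the left and at -2.70 and -2.30 on the right, while MAX moves from 0.07 and 0.59 to 0.02 and 0.11.

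Among the antagonists, MXD4, a repressor associated with differentiating and resting cells, had higher treated values. It measured 5.90 and 6.83 FPKM without the drug and 9.73 and 16.3 FPKM with it, and the groups did not overlap. Its treated mean was 2.05 times the untreated mean, a log2 difference of 0.98 (SE 0.37, limma adjusted p = 0.671). MXD4 also has the highest GC content of the members, 64.0%, and with the trend removed its changes were 0.58 in the first treated library and 0.13 in the second. Its share of the summed antagonist FPKM was 7.01% and 8.48% untreated and 10.7% and 21.9% treated.

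MXD1, an antagonist induced during epithelial differentiation, lay on opposite sides of the untreated range in the treated libraries. It had 11.8 and 10.0 FPKM without the drug, and 19.5 and 6.41 FPKM with it in replicates 1 and 2. One treated library lay above both untreated ones and the other below. The log2 changes were 0.84 and -0.75, and 0.81 and -0.27 with the trend removed; the GC content of its transcript is 42.7%. In fluorouracil replicate 1 MXD1 exceeded MYC, at 19.5 against 17.9 FPKM.

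MXD3, an antagonist expressed in proliferating cells, stayed the most abundant of its group. Its values were 48.3 and 44.4 FPKM without the drug and 45.3 and 36.7 FPKM with it, which overlap (log2 difference -0.18, SE 0.29, limma adjusted p = 0.765). With the trend removed the treated libraries were at -0.10 and -1.33, both below the untreated pair. MXI1, which represses MYC-bound genes in the same way, measured 11.6 and 11.6 FPKM without the drug and 10.4 and 8.45 FPKM with it. Its groups did not overlap, but the difference was about as large as its error, at -0.30 on the log2 scale (SE 0.28, limma adjusted p = 0.671), and -0.18 with the trend removed.

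MNT, the broadly expressed antagonist, had 3.23 and 3.80 FPKM without the drug and 3.36 and 5.29 FPKM with it. Fluorouracil replicate 1 was within the untreated range. The log2 difference was 0.26 (SE 0.38, limma adjusted p = 0.746) and turned to -0.25 with the trend removed, so no direction can be given.

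MGA, the largest protein of the network, lies in a stretch of 78 rows where the values of fluorouracil replicate 2 sit 1 row too high. Over 77 of these rows, the log2 FPKM of that library correlated with the mean of the other 3 at r = 0.43 as deposited and at r = 0.92 after each row was given the value 1 row above it (r = 0.26 in the other direction). The neighbouring row MGARP shows the shift: it had at most 0.0528 FPKM in the other 3 libraries and 61.5 in fluorouracil replicate 2, while MGAT1, the row below, had 15.7 to 17.9 FPKM in the other 3. MGA measured 3.34 and 3.93 FPKM without the drug and 2.87 FPKM in fluorouracil replicate 1. In fluorouracil replicate 2 the deposited value was 0.0369 FPKM and the moved value 1.24 FPKM. Both readings lie below the other 3 libraries. The log2 difference was -2.55 (SE 1.59) as deposited, -2.23 as deposited with the trend removed, and -0.90 (SE 0.53, limma adjusted p = 0.671) with the rows moved. MGA has a low GC content (42.0%) and the longest transcript of the network (14439 bases), features that went with low values in fluorouracil replicate 2, and the change in fluorouracil replicate 1, which is free of the shift, was -0.33.

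**Figure D3:**
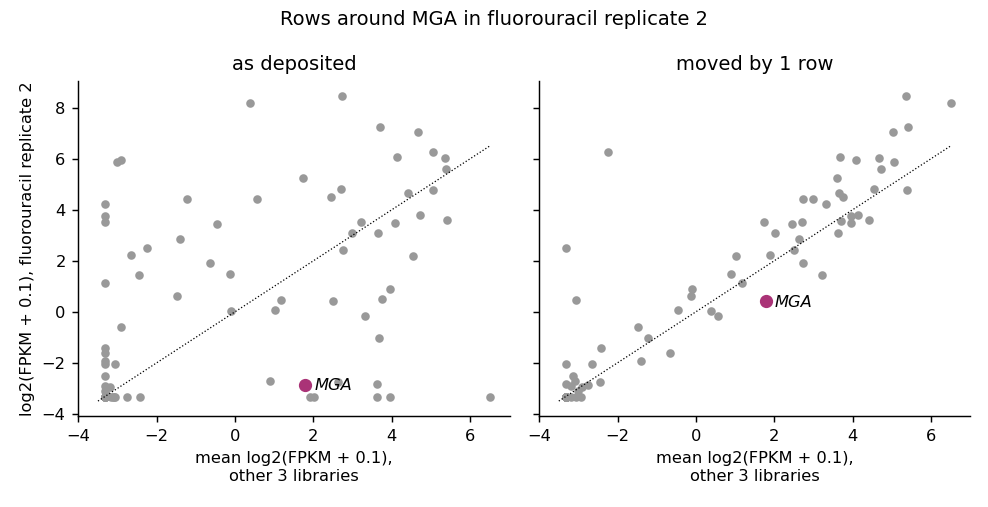
Log2(FPKM + 0.1) of 77 rows around MGA in fluorouracil replicate 2 against the mean of the other 3 libraries, as deposited (left) and moved by 1 row (right); each point is 1 row and the dotted line marks equality. The correlation is 0.43 on the left and 0.92 on the right, and MGA comes to 1.24 FPKM when moved.

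The summed FPKM of the 6 antagonists, with the moved MGA value, came to 84.1 and 80.6 without the drug and to 91.2 and 74.4 with it. The treated values lay on either side of the untreated pair. The ratio of MYC to this sum was 1.42 and 1.27 untreated and 0.196 and 0.543 treated. The FPKM of MYC thus exceeded that of the antagonists together in both untreated libraries and in neither treated library.

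**Figure D4:**
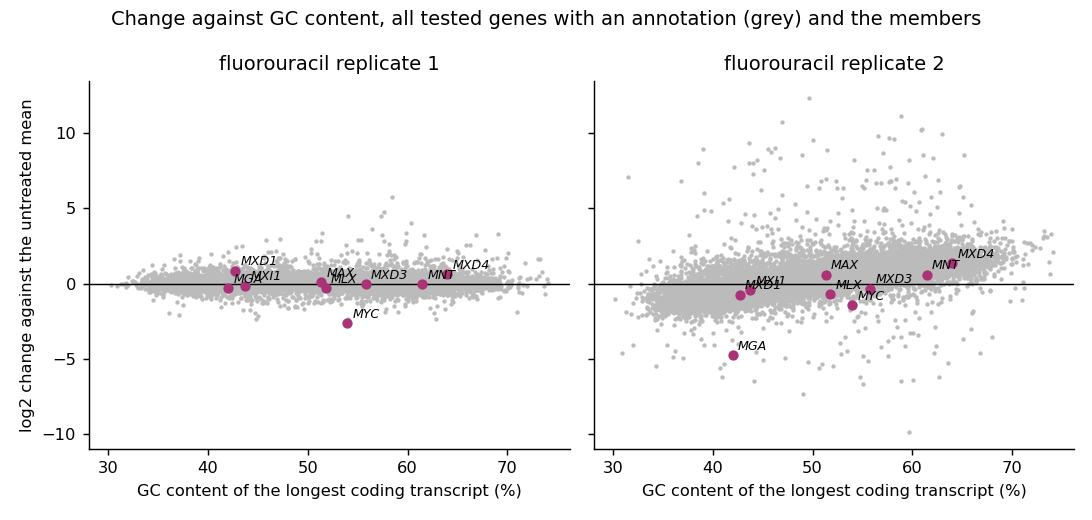
Log2 change against the untreated mean plotted over GC content (%) for 10513 genes (grey) and the 9 measured members (coloured), in fluorouracil replicate 1 (left) and 2 (right). The cloud is flat on the left (rho 0.03) and tilted on the right (rho 0.70); MYC lies below the cloud on the left and at its lower edge on the right, and MXD4, MNT and MXD1 follow its tilt on the right.

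MLX, the partner of the MondoA and ChREBP branch, had lower treated values. It measured 54.0 and 53.1 FPKM without the drug and 42.8 and 32.4 FPKM with it, so both treated libraries were below the narrow untreated range. The log2 difference was -0.52 (SE 0.30, limma adjusted p = 0.671), with -0.32 and -0.72 in the separate treated libraries, and -0.40 and -1.37 with the trend removed. Its rank among all tested genes went from 1283 and 1305 to 1612 and 2901.

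Partners and targets of MLX did not have lower values with it. MLXIP, which encodes MondoA, overlapped between the groups, with 9.47 and 10.3 FPKM without the drug and 11.5 and 8.52 FPKM with it. MLXIPL stayed below 1 FPKM in all libraries. ARRDC4 and TXNIP encode arrestin-like proteins that limit glucose uptake and are induced by MondoA with MLX. ARRDC4, whose E-box is printed above, had 1.76 and 1.46 FPKM without the drug and 9.26 and 3.53 FPKM with it, a log2 difference of 1.77 (SE 0.58, limma adjusted p = 0.671) and of 1.93 with the trend removed. TXNIP had 19.7 and 23.7 FPKM without the drug and 46.5 and 26.6 FPKM with it (log2 difference 0.70, and 0.77 with the trend removed). Both targets had higher values in both treated libraries, most so in fluorouracil replicate 1, although TXNIP overlapped after quantile normalization.

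Among noncoding RNAs of the MYC locus on chromosome 8, CCAT1, a colorectal cancer RNA transcribed from an enhancer region of MYC, also had lower treated values. It measured 44.4 and 33.9 FPKM without the drug and 17 and 5.65 FPKM with it (log2 difference -1.97, SE 0.61, limma adjusted p = 0.671). Fluorouracil replicate 2 was its lowest library, unlike for MYC. PVT1, which lies downstream of MYC, overlapped, with 22.7 and 21.6 FPKM without the drug and 23.9 and 13.0 FPKM with it. CASC11 had 0.482 and 1.56 FPKM without the drug and 0 and 0.307 FPKM with it, under the filter, and CASC8 was listed at 0 throughout. Whether counting used the strand is not stated, so reads of overlapping genes at this locus cannot be told apart.

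Genes known to be activated by MYC showed no uniform direction as deposited. Of 48 tested, 7 had higher and 10 lower treated values by range (14.6% and 20.8%, beside 24.4% and 19.3% of all genes), with a median log2 difference of 0.07 against 0.10 for all genes. In fluorouracil replicate 1 alone, 26 were below both untreated libraries and 8 above (54.2% and 16.7%, beside 36.4% and 39.0% of all genes), but by little, with a median of -0.08. With the trend removed, 26 of 48 were lower and 2 higher, where 29.2% and 18.7% of all genes were, with medians of -0.13 and -0.48 in fluorouracil replicates 1 and 2 against -0.04 and -0.07 for all genes. The named genes were 2 lower and 2 higher ones. The lower genes were POLR1B, a subunit of RNA polymerase I, at 16.6 and 15.9 FPKM without the drug and 10.5 and 6.46 FPKM with it, and WDR43, a factor of small ribosomal subunit assembly, at 54.6 and 54.3 against 33.2 and 10.9 FPKM. The higher genes were SLC3A2, a subunit of amino acid transporters, at 63.4 and 64.1 against 80.1 and 205 FPKM, and PPAN, a factor of large ribosomal subunit assembly, at 0.914 and 1.02 against 1.27 and 10.4 FPKM. The change of PPAN lay mostly in fluorouracil replicate 2, with 0.36 and 3.30 on the log2 scale in replicates 1 and 2. The log2 differences with the trend removed were -0.86 for POLR1B, -1.26 for WDR43, 0.43 for SLC3A2 and 1.0 for PPAN. ODC1 and NCL, widely used MYC targets, were chosen after their values were seen, and both overlapped between the groups. ODC1, the rate-limiting enzyme of polyamine synthesis, had 179 and 176 FPKM without the drug and 214 and 129 FPKM with it, and NCL, which encodes nucleolin, stood at 444 and 494 against 461 and 334 FPKM. Of the 48, 0 passed the adjusted test.

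Genes known to be repressed by MYC had mostly higher treated values. Of 21 tested, 14 were higher and 3 lower by range (66.7% and 14.3%, beside 24.4% and 19.3% of all genes), and the median log2 difference was 0.74. In fluorouracil replicate 1 alone 15 were above both untreated libraries and 5 below (71.4% and 23.8%, beside 39.0% and 36.4% of all genes). With the trend removed 8 were higher and 3 lower, where 18.7% and 29.2% of all genes were, and the median was 0.24, against -0.05 for all genes. CDKN1A, the cell cycle inhibitor p21 and also a p53 target, had 14.1 and 10.9 FPKM without the drug and 29.3 and 66.1 FPKM with it (log2 difference 1.82, SE 0.50, and 1.24 with the trend removed). The stress-induced genes GADD45B and GADD45G had log2 differences of 3.11 and 2.76, and of 2.39 and 1.86 with the trend removed. CDKN2B, the inhibitor p15 that MYC represses through MIZ1, had 4.79 and 5.11 FPKM without the drug and 8.67 and 6.47 FPKM with it (log2 difference 0.59, and 0.69 with the trend removed). KLF6, a Krüppel-like factor, was lower, with a difference of -1.34, and of -1.29 with the trend removed. Several of these genes respond to stress or growth signals by other routes, and 0 of the 21 passed after adjustment (limma adjusted p = 0.671 for each gene named here). CDKN2B was chosen after its values were seen.

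**Figure D5:**
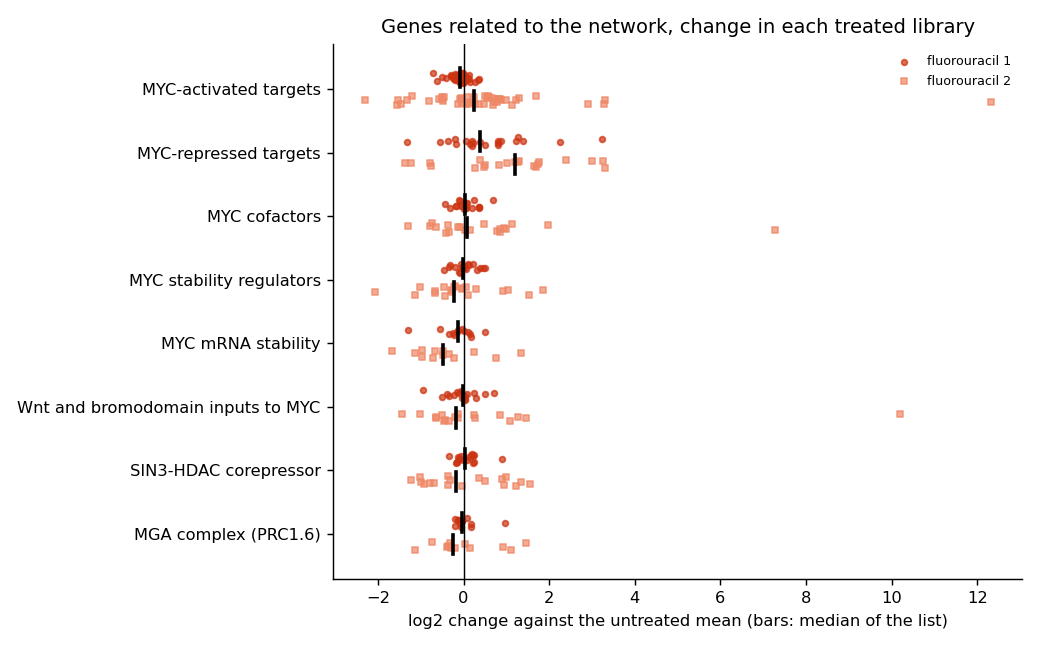
Log2 change against the untreated mean of tested genes in 8 lists related to the network, in fluorouracil replicate 1 (circles) and 2 (squares); each point is 1 gene and black bars are list medians. Genes repressed by MYC have medians of 0.37 and 1.19, and genes activated by MYC medians of -0.08 and 0.25.

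The corepressor through which MXD proteins act showed no single direction. Of 18 genes of the SIN3 and histone deacetylase complex, 6 were higher and 7 lower by range (33.3% and 38.9%, beside 24.4% and 19.3% of all genes). With the trend removed these were 4 and 6 (18.7% and 29.2% of all genes). ING1, a subunit that reads methylated histone H3, had 7.80 and 7.59 FPKM without the drug and 14.4 and 22.8 FPKM with it (log2 difference 1.23, SE 0.35, limma adjusted p = 0.671), and 1.20 with the trend removed. SUDS3 had 13.4 and 15.5 FPKM without the drug and 11.4 and 8.96 FPKM with it (log2 difference -0.51, and -0.38 with the trend removed). Of 12 genes of the Polycomb complex of MGA, 1 was higher, L3MBTL2, and 3 were lower, TFDP1, TFDP2 and CBX3 (8.33% and 25.0%, beside 24.4% and 19.3% of all genes). The log2 difference of L3MBTL2 was 0.64, and 0.22 with the trend removed. Those of TFDP1, TFDP2 and CBX3 were -0.21, -0.12 and -0.29. With the trend removed 2 of the 12 were higher and 3 lower, where 18.7% and 29.2% of all genes were. TFDP1 was among these lower genes, at -0.31, while TFDP2 (0.0013) and CBX3 (-0.14) overlapped between the groups.

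Factors that act on MYC protein showed no single direction either. Among 20 cofactors of MYC, 2 were higher and 2 lower (10.0% each, beside 24.4% and 19.3% of all genes). With the trend removed 3 were higher and 6 lower, where 18.7% and 29.2% of all genes were. TRRAP, the scaffold of the acetyltransferase complexes that MYC recruits, had 9.43 and 9.35 FPKM without the drug and 7.57 and 6.01 FPKM with it (log2 difference -0.47, and -0.51 with the trend removed). Of 20 regulators of MYC protein stability, 3 were higher and 5 lower (15% and 25.0%, beside 24.4% and 19.3% of all genes). With the trend removed 6 of 19 were higher and 7 lower, beside the same 18.7% and 29.2% of all genes. KIAA1524, which encodes the phosphatase inhibitor CIP2A that protects MYC protein, had 18.9 and 20.8 FPKM without the drug and 14.3 and 4.63 FPKM with it, and no value with the trend removed. FBXW7, the ubiquitin ligase subunit that marks MYC for degradation, had 5.01 and 4.76 against 6.40 and 4.76 FPKM.

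Of the regulators of MYC transcription, BRD2, 1 of 18 tested Wnt and bromodomain inputs, had an unadjusted limma p below 0.05. Of those of mRNA decay, ZFP36L1, 1 of 13 tested genes of mRNA stability, did so. Over all genes 3.21% did, and 1 gene per list is too few to be set against that share. Of 18 tested genes of the Wnt and bromodomain inputs, 2 were higher and 4 lower (11.1% and 22.2%, beside 24.4% and 19.3% of all genes). With the trend removed these were 3 and 4 (18.7% and 29.2% of all genes). TCF7L2, the β-catenin partner that binds the MYC enhancers, had 9.40 and 11.1 FPKM without the drug and 8.11 and 8.01 FPKM with it (log2 difference -0.34, and -0.29 with the trend removed), while BRD2, a bromodomain reader of acetylated histones, had 48.3 and 44.1 against 75.3 and 127 FPKM (log2 difference 1.08, SE 0.38, limma adjusted p = 0.671), and a difference of 0.73 with the trend removed. Of 13 tested genes that act on the stability of MYC or other short-lived mRNAs, 3 were higher and 7 lower (23.1% and 53.8%, beside 24.4% and 19.3% of all genes). With the trend removed these were 2 and 6 (18.7% and 29.2% of all genes). ZFP36L1, an AU-rich element binder that promotes decay, had 25.4 and 23.5 FPKM without the drug and 9.93 and 12.5 FPKM with it (log2 difference -1.13, SE 0.29, limma adjusted p = 0.671), and a difference of -1.31 with the trend removed. Its relative ZFP36L2 was lower as well, at 30.9 and 34 against 22.3 and 20.3 FPKM, and ZFP36 was higher, at 44.3 and 49.6 against 66 and 120 FPKM. Their differences with the trend removed were -0.97 for ZFP36L2 and 0.27 for ZFP36, the latter reduced from 0.92. IGF2BP3, which protects MYC mRNA, had 24.3 and 27.7 against 21.7 and 13.1 FPKM, a difference of -0.61, and of -0.34 with the trend removed.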

How the data were processed

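The authors deposited 1 table with 1 FPKM value per gene row and library. Per the submitters' processing notes, the tools were Cufflinks 2.2.1 and TopHat2 2.1.0; the builds hg38 and mm10 are named without roles. No source used here gives the annotation or any scaling across libraries. Of 33117 rows, 28 with a date-like number for a symbol were left out. Values were transformed to log2(FPKM + 0.1), which understates changes of low genes, and the 12462 genes that averaged 1 FPKM or more were tested, 9 of the 10 members among them. Fluorouracil (2 libraries) was compared with untreated (2 libraries) by limma 3.58.1 in R 4.3.3, two-sided, with a trended prior variance on 2 residual degrees of freedom and Benjamini-Hochberg adjustment over all tested genes; the step was tested on simulated data. "Higher" or "lower by range" means that the treated pair lies wholly above, or below, the untreated pair. GC content and length are those of the longest coding transcript in GENCODE 29, which covered 84.4% of tested genes; their trend was removed per library by loess (span 0.3).

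The members and all gene lists were chosen with earlier results of these data known, so lists are described by counts and medians without a test. Named genes are the 10 members, all genes of the MYC locus and MLX lists, the 3 genes nearest to a member, and from each other list the 4 non-overlapping genes with the smallest p, of which the text gives examples; CDKN2B, ODC1, NCL, FBXW7 and CD14 were added after their values were seen. Alternatives were other pseudocounts, filters, scalings and prior variance, a replicate block, the shifted rows moved or left out, and each library left out. Fragment depth is unknown, so precision rests on the spread between libraries.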

Additional observations from a re-analysis of the deposited data

How the results depend on the processing

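Under 15 alternatives, the log2 difference of MYC stayed negative, from -2.62 to -1.45, and so did those of MLX, MXI1, MXD3 and, under the 14 that keep its row, MGA; MXD4 and MAX stayed positive in all 15. MYC crossed the threshold in 3: with a replicate block (-2.03, limma adjusted p = 0.0467), without fluorouracil replicate 2 (-2.62) and without fluorouracil replicate 1 (-1.45); over the fits that leave out 1 library its range was -2.62 to -1.45. Whether same-numbered libraries belong together is not stated. Their deviations were not correlated across genes (r = -0.05). This cannot decide it, because fluorouracil replicate 2 spread far more widely than the other libraries. The count of genes called was 0 as reported, with 400 at an unadjusted p below 0.05. It was 339 with the replicate block, 81 with no filter on low values, and 0 to 8337 when 1 library was left out (8337 without fluorouracil replicate 1, 18 without fluorouracil replicate 2). Members with non-overlapping groups numbered 5, and 6 to 9 when 1 library was left out, with 9 in the absence of fluorouracil replicate 1 and 6 in the absence of fluorouracil replicate 2. With 3 libraries groups separate more easily by construction: 94.4% of all genes did not overlap without fluorouracil replicate 1, 75.5% without fluorouracil replicate 2, and 59.3% and 57.7% without untreated replicates 1 and 2, beside 43.7% with all 4. MXD1 changed sign with median centring (-0.0038), without fluorouracil replicate 1 (-0.75) and without untreated replicate 2 (-0.07), and MNT with the GC and length trend removed (-0.25) and without fluorouracil replicate 2 (-0.060). Over the fits that leave out 1 library, MXD1 ranged from -0.75 to 0.84 and MNT from -0.060 to 0.58. The causes were not tested. Without fluorouracil replicate 1, MAX, MXD1, MXD4, MXI1, MLX and MGA passed as well, in a fit that called 8337 genes. After quantile normalization 17 of 48 genes activated by MYC were lower by range in place of 10, 3 of 18 corepressor genes higher in place of 6, and 1 MLX target higher in place of 2. The share of all genes by range under that scaling was not computed, so these shifts have no base to be read against. Noncoding rows such as CCAT1 have no value with the trend removed.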

Other observations

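MYCL, another MYC paralogue that is not among the 10 genes, was near the filter. It had 0.942 and 1.0 FPKM without the drug and 0.899 and 2.54 FPKM with it. The log2 difference was 0.60 (SE 0.71, limma adjusted p = 0.700), and 0.20 with the trend removed.

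The other members had close followers as well, by the same measure of likeness over 4 libraries. MXD4 was followed by RALGPS1, NPIPB11 and CLK2, the last a kinase of splicing factors, which had 12.1 and 14.9 FPKM without the drug and 20.4 and 34.6 FPKM with it. MLX was followed by MRPS30, NLN and SLMO2, and MXD1 by ACER2, SGK494 and RPS26P11. MAX was followed by RELA, FAM32A and KIAA1549, MXD3 by SCARB2, MAP4K4 and SH3BGRL, MXI1 by NIPA2, DPH5 and EZR, and MNT by AMDHD2, DHTKD1 and CGN. The followers of MGA rest on its shifted row and are not given.

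Some rows of the related lists were near 0 in 3 libraries and high in fluorouracil replicate 2, chosen here after their values were seen. EIF4A1, a translation initiation factor, was listed at 0 in 3 libraries and at 513 FPKM in that one. NME2 had 1.27, 1.31 and 0.625 FPKM and then 1639 FPKM, and MYCBP at most 0.0280 FPKM and then 17.4 FPKM. These rows count among the tested genes of their lists, and none of the 3 is higher by range. PPAN, named above, was also high mainly in fluorouracil replicate 2, at 10.4 FPKM against at most 1.27 FPKM elsewhere. It does count as higher by range.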
